A study of Mus musculus with 2 samples.

Results

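Transcripts of the 5 fibrillar collagen genes Col1a1, Col1a2, Col3a1, Col5a1 and Col5a2 were examined in dermal fibroblasts of untreated (UT) and imiquimod-treated (IMQ) mouse skin. The 5 genes were taken by symbol, and each matched 1 of the 31053 genes counted. Live cells that were negative for the leukocyte antigen CD45 and positive for tdTomato had been sorted from the dermis of 8-week-old C57BL/6 mice of the genotype PdgfraDreER-tdTomato. In these mice of both groups, tamoxifen activates a Dre recombinase driven by Pdgfra and thereby labels cells that expressed this fibroblast receptor gene at the time of induction. IMQ skin had received imiquimod, a Toll-like receptor agonist that induces psoriasis-like inflammation, for 7 days. Each group was 1 library, so the values have no replicates, variation between mice is unknown and nothing was tested. All intervals below are exact 95% intervals that cover counting error only.

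Fibrillar collagens form the rope-like fibrils that give the dermis its tensile strength. Each chain holds a long triple-helical domain in which glycine leads every Gly-X-Y triplet, because only glycine is small enough to sit in the centre of the helix. Col1a1 and Col1a2 encode the α1 and α2 chains of type I collagen, the main collagen of skin, in which α1 chains outnumber α2 chains. Col3a1 encodes the chain of type III collagen, a homotrimer that is abundant in elastic tissues and in young or healing dermis. Col5a1 and Col5a2 encode chains of type V collagen, a minor component that co-assembles with type I collagen, nucleates fibrils and limits their diameter.

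In the GENCODE M21 annotation of GRCm38, Col1a1 lies on the plus strand at chr11:94936224-94953042 and Col1a2 on the plus strand at chr6:4504814-4541544. Col3a1 lies on the plus strand at chr1:45311538-45349706, next to Col5a2, which lies on the minus strand at chr1:45374321-45503282. Col5a1 lies on the plus strand at chr2:27886425-28039514. The genes shared one design. Their principal transcripts had 51 to 66 coding exons, of which 21 to 29 were exactly 54 bases long, and the longest unbroken run of glycine-led triplets was 338 triplets in Col1a1 and Col5a1, 339 in Col1a2 and Col5a2 and 344 in Col3a1. To show this repeat, the first 54-base coding exon inside that run is printed for each gene, 5′ to 3′ on its own strand, with glycine codons in capitals.
Col1a1, exon 8, chr11:94939904-94939957: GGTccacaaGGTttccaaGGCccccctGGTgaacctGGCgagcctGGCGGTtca
Col1a2, exon 8, chr6:4515481-4515534: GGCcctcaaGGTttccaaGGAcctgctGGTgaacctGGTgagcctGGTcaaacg
Col3a1, exon 6, chr1:45325360-45325413: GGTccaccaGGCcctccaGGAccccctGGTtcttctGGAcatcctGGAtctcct
Col5a1, exon 15, chr2:27965251-27965304: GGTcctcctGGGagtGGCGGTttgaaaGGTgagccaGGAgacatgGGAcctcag
Col5a2, exon 10, chr1:45422386-45422439: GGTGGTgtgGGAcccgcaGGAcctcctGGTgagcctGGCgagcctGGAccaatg
In every one of these exons a glycine codon opened each triplet, and the extra capitals in Col1a1, Col5a1 and Col5a2 are a glycine in another position of a triplet. The Col1a1 and Col1a2 exons shared 42 of 54 bases position by position, against 24 to 37 for the other pairs. The repeat did not make the transcripts interchangeable for counting. No stretch of 31 bases was shared between the principal transcripts of these genes and any transcript of another of the 5. Col1a1, Col1a2 and Col5a2 shared none with any other gene either, whereas Col3a1 shared 111 such stretches with 1 other gene and Col5a1 shared 27 with 72. Such a stretch does not by itself place a read in Col3a1 or Col5a1, and the effect on the counts was not tested. On the same strand, Gm47302 overlaps Col3a1, Gm43921 overlaps Col1a2 and Gm38211 overlaps Col5a2. On the other strand, 2810430I11Rik and Gm13372 overlap Col5a1.

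Barcodes with 200 to 5000 detected genes and at most 5% mitochondrial unique molecular identifiers (UMIs) were kept. These were 1045 of 1415 barcodes in UT and 571 of 5047 in IMQ, with 1104798 and 460947 UMIs and a median of 741 and 659 UMIs per barcode. Too few genes were detected in 3621 IMQ and 64 UT barcodes, and the mitochondrial share was too high in 3343 and 332. The study counted more filtered IMQ cells than the deposited IMQ matrix held barcodes, and more filtered UT cells than the 1045 kept here. Each value thus describes the deposited matrices and not the cell sets of the study. The libraries shared 1 barcode before and 0 after filtering. Fibroblast transcripts were present in the kept barcodes, in shares that differed widely between markers. All 7 fibroblast markers were detected, and Dcn had a UMI in 95.1% of UT and 97.5% of IMQ barcodes, while Pdgfra itself had one in 3.92% and 2.45%. Lum had one in 77.7% and 80.7%, Vim in 77.8% and 82.5%, and Dpt in 51.3% and 41.3%. Thy1 had one in 25.5% and 7.88%, and Pdgfrb in 4.50% and 3.33%. Mural markers had a UMI in 9.47% of UT and 1.93% of IMQ barcodes, and melanocyte markers in 2.01% and 5.08%. Summed keratinocyte markers reached 1545 UMIs per 1000000 (CPM) in UT and 15.2 in IMQ, and summed myeloid and class II markers 1607 and 236. The rRNA-overlapping transcript Gm42418 took 1.38% of UMIs in UT and 14.6% in IMQ.

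Type I and type III collagen transcripts were among the most abundant of all transcripts in both libraries. The 5 genes together took 5.42% of UMIs in UT and 10.2% in IMQ. By UMIs per gene, Col1a1 ranked 1, Col1a2 ranked 4 and Col3a1 ranked 7 among the 12947 genes detected in UT, and they ranked 2, 4 and 5 among 10397 in IMQ. The type V genes were far less abundant. Col5a2 ranked 234 in UT and 186 in IMQ, and Col5a1 ranked 478 and 236. A 3′ UMI marks 1 end of a molecule, so levels compare between genes without division by length.

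All 5 genes had a higher share of UMIs in IMQ than in UT. Col1a1 had 25527 CPM in UT (interval 25230 to 25827) and 47112 in IMQ (46487 to 47743), for a log2 ratio of 0.88 (0.86 to 0.91). Col1a2 had 17299 CPM in UT and 32748 in IMQ, for a log2 ratio of 0.92 (0.89 to 0.95). Col3a1 had 10505 in UT and 20675 in IMQ, for a log2 ratio of 0.98 (0.94 to 1.02). These genes were therefore higher by similar factors, 1.85-fold, 1.89-fold and 1.97-fold. The type V genes differed less between the libraries. Col5a1 had 281 CPM in UT (250 to 314) and 430 in IMQ (372 to 494), which was 1.53-fold higher (1.27 to 1.84). Col5a2 had 575 in UT (531 to 621) and 690 in IMQ (616 to 770), which was 1.20-fold higher (1.05 to 1.38). Summed over the 5 genes, 54186 CPM in UT faced 101654 in IMQ, a ratio of 1.88 (1.85 to 1.90).

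**Figure D1:**
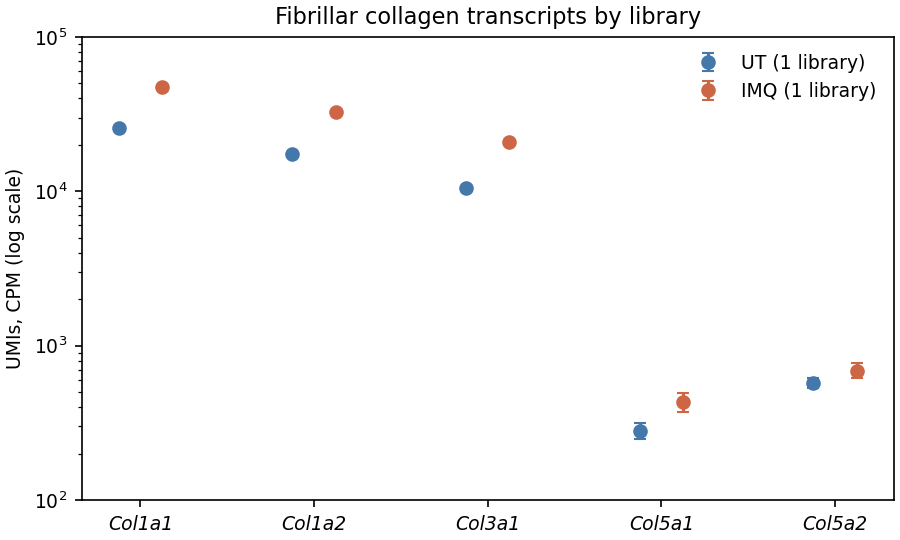
CPM of each gene in kept barcodes of the UT and IMQ libraries on a log scale, with exact 95% Poisson intervals, which are narrower than the points for the 3 abundant genes. Col1a1, Col1a2 and Col3a1 lie between 10505 and 47112 and Col5a1 and Col5a2 between 281 and 690, with the IMQ point above the UT point for each gene.

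Against the rest of the transcriptome, 4 of the 5 genes were at least 1.5-fold higher in IMQ, a direction in which 8.49% of the 8129 genes with at least 10 UMIs passed that fold. None of the 5 was 1.5-fold lower, as 51% of those genes were. Col5a2 was the member under the fold. Of the 1314 genes that reached 100 CPM in either library, 7.15% were higher and 49.9% lower by that fold. The median gene had a log2 ratio of -0.61, so the 5 genes lay 0.87 (Col5a2) to 1.58 (Col3a1) above the median gene on the log2 scale. Under edgeR TMM scaling, which shifts every log2 ratio by 0.48, all 5 genes passed the fold, and the split over all genes became 19.3% higher and 29.1% lower.

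The proportions between the genes do not depend on how the libraries are scaled. The 2 type I chains stood in similar proportions in the kept barcodes of both libraries, with 1.48 Col1a1 UMIs per Col1a2 UMI in UT (1.45 to 1.5) and 1.44 in IMQ (1.41 to 1.47). The ratio of these values was 0.975 (0.948 to 1.00), an interval that reached 1. This ratio moved in both directions with the barcodes compared, from 0.915 (0.873 to 0.958) with 300 to under 500 genes to 1.06 (1.04 to 1.08) over all deposited barcodes and 1.30 (1.13 to 1.48) under 200 genes. Col3a1 stood at 0.245 UMIs per type I UMI in UT and 0.259 in IMQ, a proportion 1.06-fold (1.02 to 1.09) higher in IMQ. It was 1.05 (1.03 to 1.08) with a 10% mitochondrial maximum and 1.47 (1.23 to 1.77) under 200 genes. The interval covered 1 over all deposited barcodes (1.01, 0.988 to 1.03) and with 200 to under 300 genes (0.947, 0.876 to 1.02). It also did with 300 to under 500 genes (1.04, 0.992 to 1.10) and with 500 or more (1.02, 0.949 to 1.10). In the kept barcodes the type V proportion differed more. Per type I UMI there were 0.02 type V UMIs in UT (0.0187 to 0.0213) and 0.0140 in IMQ (0.0128 to 0.0153), so the type V proportion in IMQ was 0.702 of that in UT (0.629 to 0.783). Within the type V pair, Col5a1 stood at 0.488 UMIs per Col5a2 UMI in UT and 0.623 in IMQ, a ratio of 1.28 (1.01 to 1.60). The lower type V proportion was seen in barcodes with 300 to under 500 genes (0.729, 0.607 to 0.874), whereas the interval reached 1 in barcodes with 200 to under 300 genes (0.788, 0.591 to 1.07) and in those with 500 or more (0.824, 0.635 to 1.05).

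Most barcodes of both libraries carried type I and III collagen transcripts. To compare shares at 1 depth, barcodes were thinned at random to 400 UMIs, which left out 73 UT and 33 IMQ barcodes. Col1a1 then had a UMI in 85.8% of 972 UT barcodes (83.4% to 87.9%) and in 95.4% of 538 IMQ barcodes (93.2% to 97.0%). Col1a2 had one in 83.4% and 95.9%, and Col3a1 in 78.0% and 94.8%. All 3 of these genes were seen together in 71.5% of UT barcodes (68.6% to 74.3%) and 90.9% of IMQ barcodes (88.1% to 93.2%). Any of the 5 genes was seen in 92.2% of UT and 99.3% of IMQ barcodes, shares that were near their ceiling. The libraries thus differed by more percentage points in joint detection than in detection of any chain, an order that holds on that scale only. The type V genes were seen in a minority. Col5a1 had a UMI in 8.54% of UT (6.86% to 10.5%) and 14.1% of IMQ barcodes (11.3% to 17.4%), and Col5a2 in 15.6% (13.4% to 18.1%) and 22.5% (19.0% to 26.3%). Without thinning, Col1a1 was seen in 89.9% of UT and 97.7% of IMQ barcodes and Col5a2 in 30.8% and 32.6%.

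Free RNA can place collagen UMIs in barcodes whose cell does not make them, so the same genes were read in barcodes with class II transcripts and in barcodes under 200 genes. The sort left few barcodes of the former kind. The 5 kept UT barcodes with at least 5 UMIs of class II genes, at a median of 651 UMIs, held 1 UMI of the 5 collagen genes, or 115 CPM (2.91 to 641), against 54616 in the other UT barcodes. In IMQ only 3 such barcodes were kept, at a median of 369 UMIs, and they held 15 collagen UMIs, or 12701 CPM (7109 to 20949), against 101882 in the others. Both values lay below those of the remaining barcodes, but 5 and 3 barcodes do not fix a background share, since 1 of 5 barcodes with Col1a1 has an interval of 0.505% to 71.6%. Barcodes under 200 genes were a second reading. Thinned to 200 UMIs, Col1a1 was seen in 46.9% of 64 such UT barcodes, at a median of 396 UMIs, against 76.9% of kept UT barcodes. In IMQ the share was 88.0% of the 3066 such barcodes with at least 200 UMIs, against 90.9% (88.2% to 93.1%) of kept IMQ barcodes. The median over all 3621 such IMQ barcodes was 287 UMIs. Thinning left out 555 of them for too few UMIs, and none from the other sets compared here. Low-gene IMQ barcodes were thus nearly as rich in collagen transcripts as the kept ones, with 88859 against 101654 CPM, and whether they hold cells, fragments or free RNA was not tested.

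Collagen levels ranged widely from cell to cell, and relatively more so in UT. Per 400 UMIs, the summed count of the 5 genes in UT had a 5th percentile of 0, a median of 13 and a 95th percentile of 66.5, with a highest barcode of 173. In IMQ these values were 3, 38, 98.2 and 201. Barcodes with no UMI of any of the 5 genes numbered 76 in UT (7.82%) and 4 in IMQ (0.743%). The upper part of the UT distribution thus overlapped most of the IMQ distribution. Of the percentiles given, the libraries lay closest in UMIs at the 5th and furthest apart at the 95th. The squared coefficient of variation in excess of sampling noise was 1.13 in UT and 0.533 in IMQ for the sum, 1.36 and 0.602 for Col1a1, 1.12 and 0.571 for Col1a2, and 1.02 and 0.482 for Col3a1. Its median over genes with a mean of at least 1 thinned UMI was 0.331 for 81 genes in UT and 0.343 for 60 in IMQ. The variance of the sum over its mean was alike in the libraries, 24.1 in UT and 23.1 in IMQ. The top 10% of barcodes carried 35.2% of the summed UMIs in UT and 25.9% in IMQ.

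**Figure D2:**
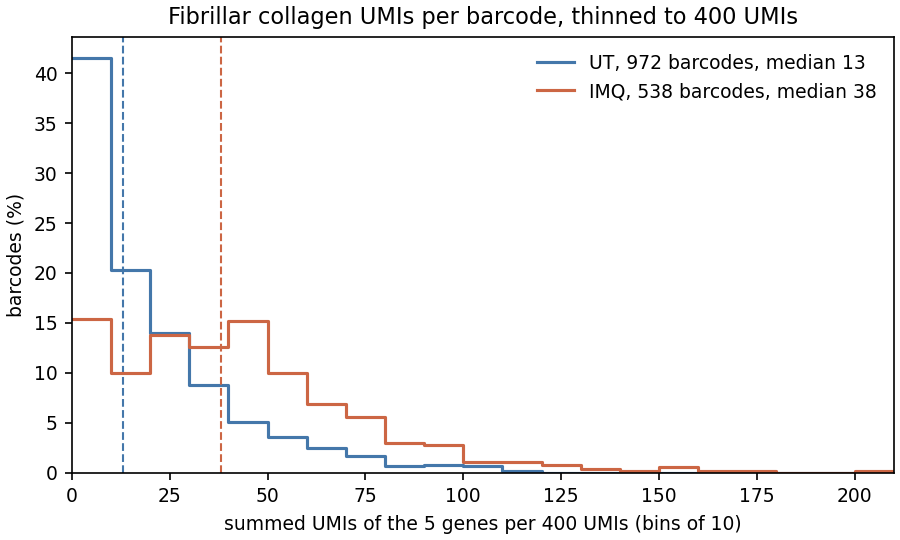
Share of barcodes by summed UMIs of the 5 genes, in bins of 10, after thinning to 400 UMIs, for 972 UT and 538 IMQ barcodes. Dashed lines mark the medians, 13 in UT and 38 in IMQ, and the UT barcodes pile up in the lowest bins.

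The 3 abundant genes varied together across barcodes, with correlations above the median of all gene pairs. Between log2(thinned UMIs + 1) of Col1a1 and Col1a2, Pearson r was 0.83 over 972 UT barcodes and 0.87 over 538 IMQ barcodes. Col1a1 and Col3a1 had an r of 0.77 in UT and 0.80 in IMQ, and Col1a2 and Col3a1 of 0.75 and 0.78. For comparison, the median r over all pairs of genes with a mean of at least 1 thinned UMI was 0.07 in UT and 0.11 in IMQ. On thinned UMIs without the log, and with the sampling part taken out, the 3 pairs had an r of 0.88 to 0.92 in UT. In IMQ this r was 0.87 to 0.94. The scale and the correction both changed here, and their parts were not separated. The 7 pairs with a type V gene had an r of 0.12 to 0.32 in UT and 0.16 to 0.30 in IMQ, but with means of 0.0998 to 0.277 UMIs per barcode these counts were too sparse to read. All barcodes of a library share its preparation and depth, and these correlations are descriptions with no p.

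**Figure D3:**
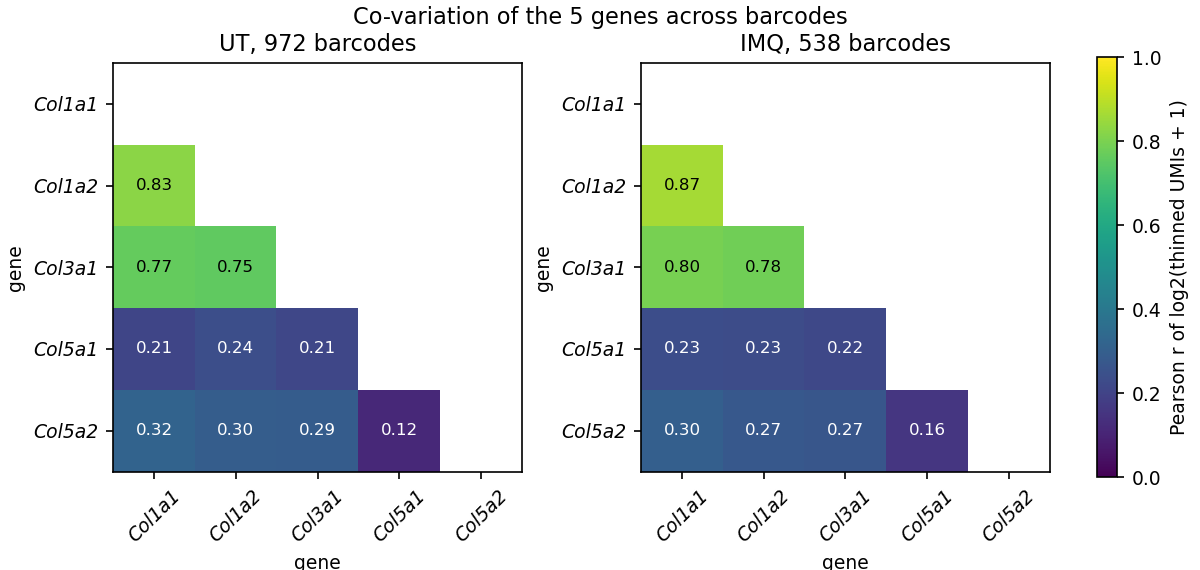
Pearson r of log2(thinned UMIs + 1) for each pair of the 5 genes, over 972 UT barcodes on the left and 538 IMQ barcodes on the right. The 3 pairs of Col1a1, Col1a2 and Col3a1 lie between 0.75 and 0.87 in both libraries, and pairs with a type V gene lie between 0.12 and 0.32.

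The genes whose counts followed the summed collagen count most closely were ranked in each library. Among genes with at least 100 CPM in UT, the 10 with the highest r were Dcn (0.63), Aebp1 (0.62), Sparc (0.54), Gsn (0.48), Ctsk (0.44), Lum (0.43), Serpinh1 (0.42), Adamts2 (0.39), Tgfbi (0.38) and Mmp2 (0.34). Dcn and Lum encode small leucine-rich proteoglycans that bind collagen fibrils, Sparc a collagen-binding matricellular protein, and Serpinh1 the collagen chaperone HSP47. Adamts2 encodes a procollagen N-proteinase, Ctsk the protease cathepsin K and Mmp2 a gelatinase. In IMQ the list was Sparc (0.49), Dcn (0.46), Aebp1 (0.46), Ctsk (0.30), Lum (0.30), Mmp2 (0.27), Lars2 (0.26), Tgfbi (0.26), Ccdc80 (0.25) and Gm42418 (0.25). The lists shared 7 genes, namely Aebp1, Ctsk, Dcn, Lum, Mmp2, Sparc and Tgfbi. Lars2 and Gm42418 differed strongly between the libraries, at 1088 and 13753 CPM in UT and 8352 and 145665 in IMQ. The genes with the lowest r in both libraries encoded ribosomal proteins, such as Rps24 (-0.34 in UT and -0.32 in IMQ). Since each barcode was thinned to a fixed total, a gene with many counts lowers the room for all others. The part of this limit in the values of r was not tested.

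Collagen levels differed between barcodes that carried a UMI of a marker of a fibroblast subset and the rest of the same library. In UT, the 160 barcodes with Crabp1, a retinoic acid binding protein gene, had 32359 CPM of the 5 genes (31596 to 33136) against 59336 in the 885 others. In IMQ only 9 barcodes carried Crabp1, and they had 7960 (6908 to 9128) against 107198. Barcodes with Crabp1 thus had less collagen RNA in both libraries. Barcodes with Mmp3 or Clec11a had more, 77514 in 269 UT barcodes against 43375 in the others, and 123022 in 216 IMQ barcodes against 85859. Those with Pi16 had 61498 against 51674 in UT and 119121 against 99528 in IMQ. Barcodes with Ctla2a, 167 in UT and 278 in IMQ, had 59238 against 52732 and 116137 against 88901. Cthrc1, a gene of activated fibroblasts, had a UMI in 81 IMQ barcodes, which had 130793 CPM (128061 to 133568) against 96730 in the remaining 490. The 3 UT barcodes with Cthrc1 went the other way, with 25599 CPM (21019 to 30880) against 54297. Barcodes with a marker UMI were also deeper than the others in each of these contrasts, by a median of 661 against 659 UMIs (Pi16 in IMQ) up to 1102 against 658 (Crabp1 in IMQ), and the part of depth in these differences was not tested.

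The difference between the libraries varied with the class of barcode compared. In barcodes with 200 to under 300 genes, the 5 genes took 37556 CPM in UT and 108898 in IMQ, 2.90-fold higher (2.81 to 2.99). In those with 300 to under 500 genes they took 54707 and 110993, 2.03-fold higher (1.99 to 2.07). In those with at least 500 genes they took 57258 in 303 UT barcodes and 64702 in 37 IMQ barcodes, 1.13-fold higher (1.10 to 1.16). The top barcode of this class held 3.44% of these collagen UMIs in UT and 10.6% in IMQ, a spread between barcodes that the interval does not cover. In that class none of the 5 genes reached 1.5-fold, and both type V genes had a ratio under 1 with an interval that covered 1 (Col5a1, 0.953, 0.602 to 1.45, and Col5a2, 0.918, 0.665 to 1.24). Classes of total UMIs gave another order. The ratio of the sum was 1.24 (1.12 to 1.38) under 400 UMIs, in 73 UT and 33 IMQ barcodes. It was 2.59 (2.51 to 2.68) with 400 to under 600 UMIs, 2.16 (2.11 to 2.21) with 600 to under 1000 and 1.74 (1.71 to 1.77) with 1000 or more, where 335 UT and 113 IMQ barcodes were compared. A barcode with more UMIs in few genes has fewer genes detected at the same depth, so classes by genes are not independent of the collagen level. By mitochondrial share, the ratio was 2.15 up to 2.5%, 1.62 from 2.5 to 5%, 1.67 from 5 to 10% and 1.09 (1.04 to 1.13) above 10%, a class that held 48 UT barcodes. Above 10%, the top barcode held 21.1% of these collagen UMIs in UT and 1.54% in IMQ.

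**Figure D4:**
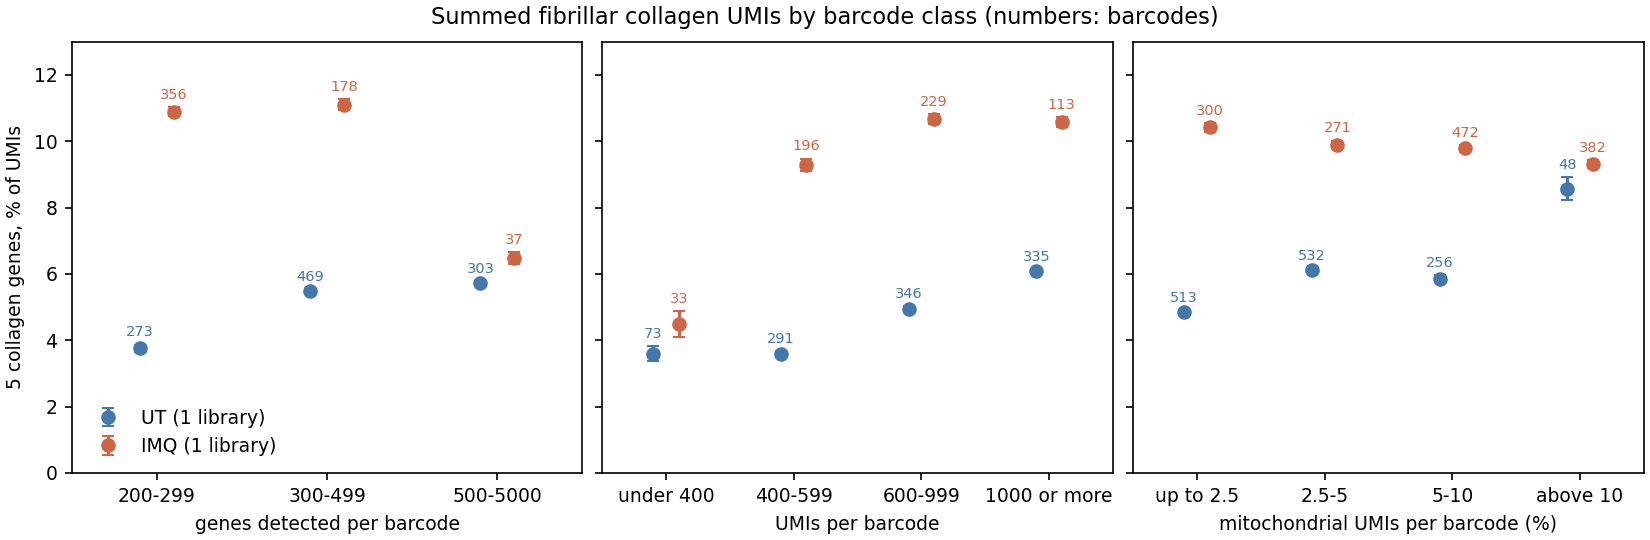
Share of UMIs taken by the 5 genes in UT and IMQ barcodes, by genes detected, by UMIs and by mitochondrial share, with exact 95% intervals and the number of barcodes beside each point. The first 2 panels hold kept barcodes, the last all barcodes with 200 to 5000 genes, and the IMQ point is the higher in every class, by 1.09-fold to 2.90-fold.

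Other genes of the fibrillar collagen pathway did not all differ in the same direction. Over genes with at least 10 UMIs, the median log2 ratio was 0.12 for 11 fibril partners, -0.07 for 19 folding and processing genes, 0.17 for 7 genes of degradation and uptake, 0.01 for 15 regulators and -0.50 for 4 receptors, beside -0.61 over all genes. Counts by list are given with 1.5-fold as the limit, which 8.49% of all genes passed upward and 51% downward. Of the 6 other fibrillar collagens only Col5a3, the third type V chain gene, had enough UMIs, with 62 in UT and 3 in IMQ, or a log2 ratio of -3.11 (-5.42 to -1.49). Col2a1, Col11a2 and Col24a1 had no UMI in either library.

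Among fibril partners, 4 of 11 were higher and 3 were lower in IMQ. Sparc, the collagen-binding matricellular protein, went from 19547 CPM in UT to 42224 in IMQ, or a log2 ratio of 1.11 (1.08 to 1.14) that was close to those of Col1a1, Col1a2 and Col3a1. The others higher were Postn, the periostin gene (24 UMIs in UT and 20 in IMQ, log2 ratio 1.00, 0.07 to 1.92), Fn1, the fibronectin gene (log2 ratio 0.76, 0.34 to 1.17), and Col14a1, whose interval covered 0 (-0.13 to 1.60). Thbs2, encoding an anti-angiogenic matrix glycoprotein that affects fibril shape, was lower, with 489 in UT and 135 in IMQ, or a log2 ratio of -1.86 (-2.26 to -1.48). Fmod had 43 UMIs in UT and 2 in IMQ, and Col12a1 had 12 and 2, with an interval that covered 0 (-4.53 to 0.84). Dcn had a log2 ratio of -0.47, which did not reach the limit and lay 0.13 above the median gene.

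In CPM, enzymes and chaperones that build the fibril showed no common direction, with 3 of 19 genes higher and 4 lower. With TMM scaling 7 of the 19 were higher and 0 lower, beside 19.3% and 29.1% of all genes. Lox, the lysyl oxidase that cross-links collagen, had 150 CPM in UT and 293 in IMQ, or a log2 ratio of 0.96 (0.62 to 1.30). Plod1, a lysyl hydroxylase, had a log2 ratio of 0.92 (0.43 to 1.41), and Mia3, encoding the receptor TANGO1 that loads procollagen at endoplasmic reticulum exit sites, one of 0.91 (0.24 to 1.57). The 4 lower genes were Loxl1, P4hb, Ppib and Crtap, with log2 ratios of -0.69 to -0.60, which were close to the median gene. The chaperone gene Serpinh1 had a log2 ratio of -0.12 (-0.24 to 0.01), with 1683 and 1551 CPM. In the kept barcodes the ratio of the chaperone thus lay under those of the 5 chain genes, an order that no scaling can change. Whether it holds in other sets of barcodes was not examined. Pcolce and Pcolce2, enhancers of procollagen C-proteinase, had log2 ratios of 0.17 and 0.02.

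Of the degradation and uptake genes, Timp1, a metalloproteinase inhibitor, was higher in IMQ (15 and 21 UMIs, log2 ratio 1.75, 0.72 to 2.81), and Mmp14 and Timp3 were lower. Mmp14, the membrane-bound collagenase, had 546 CPM in UT and 145 in IMQ, or a log2 ratio of -1.91 (-2.30 to -1.54). Ctsk had a log2 ratio of 0.54 and Mmp2 of 0.17, both under the limit. Of the regulators, Cebpb, a transcription factor gene of the inflammatory response, was higher at 200 against 529 CPM (log2 ratio 1.40, 1.14 to 1.67), as was Smad3 with 4 and 6 UMIs and an interval that covered 0 (-0.23 to 4.11). Tgfb2, Smad4 and Yap1 were lower, and the interval of Yap1 covered 0. Most TGFβ pathway genes had too few UMIs to place, such as Tgfb1 with 27 in UT and 14 in IMQ. The receptor genes Itgb1 (log2 ratio -0.75) and Ddr2 (-0.71), encoding the β1 integrin chain and a discoidin domain collagen receptor, were lower in IMQ, by about as much as the median gene. Under TMM scaling, which shifts every log2 ratio by 0.48, 19.3% of all genes were higher and 29.1% lower by that fold. The counts by list moved upward too, except for the other fibrillar collagens. Of 19 folding genes 7 were higher and 0 lower, of 15 regulators 6 were higher and 0 lower, and of 4 receptors 0 were lower.

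**Figure D5:**
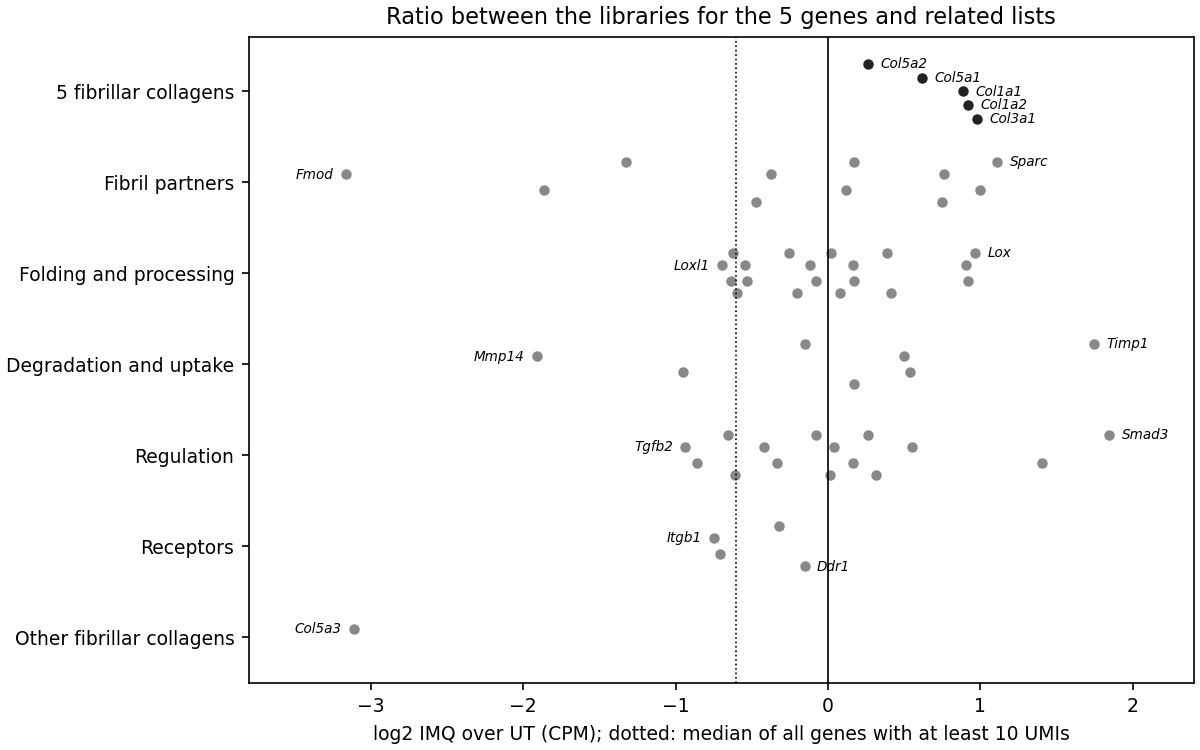
Log2 ratio of IMQ over UT for the 5 genes and for each pathway gene with at least 10 UMIs, by list, with the ends of each list named. The dotted line is the median over 8129 genes, -0.61, and the 5 fibrillar collagens lie between 0.26 and 0.98.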

How the data were processed

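UMI counts per gene and barcode were deposited by the authors, per library, without normalisation. The file headers name Cell Ranger 3.0.0 for UT and 3.1.0 for IMQ, the submitters' processing notes name mm10, and the annotation release is not given in the sources used here. Libraries were made with the Chromium 3′ v3 kit. Barcodes with 200 to 5000 genes and at most 5% mitochondrial UMIs were kept, after the study's methods, with no doublet step. UMIs were summed per library and scaled to 1000000 per library (CPM), with exact Poisson, Clopper-Pearson and conditional binomial intervals (SciPy 1.17.1), after tests on simulated data. List medians use log2 ratios with 1 CPM added. Thinning drew 400 UMIs per barcode without replacement, or 200 for background shares. The excess squared coefficient of variation subtracts the multinomial part.

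Members and lists were chosen with earlier results of these data known. Named genes were the 5 members, those of the pathway lists and, per library, the 10 genes with the highest r to the members' sum among genes with at least 100 CPM, with Gm42418. Rps24 was chosen after its value was seen. Ccn2 was matched as Ctgf through the GRCm38.p6 RefSeq gene table. Exon sequences are from GENCODE M21 transcripts. Alternatives were other mitochondrial, gene and depth limits, Scrublet (scanpy 1.11.5), removal of barcodes with other-type markers, edgeR 4.0.16 TMM and median-of-ratios scaling, and other thinning.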

Additional observations from a re-analysis of the deposited data

How the results depend on the processing

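With 1 library per group, no replicate could be left out. No paired analysis was possible because each group held 1 library. The log2 ratio of the summed genes, 0.91, stayed above 0 under all 17 alternatives. It was 0.86 with a 10% mitochondrial maximum or all deposited barcodes, 0.83 without barcodes carrying 2 or more UMIs of other-type markers, 1.39 with TMM, 1.38 with median-of-ratios scaling, 1.17 when UMIs of Gm42418, AY036118, ribosomal protein and mitochondrial genes were left out of the total, and 0.18 with at least 500 genes, where 37 IMQ barcodes remained. Alternatives chosen after seeing the data gave 1.54 and 1.02 with 200 to under 300 and 300 to under 500 genes, 0.32, 1.37, 1.11 and 0.80 with under 400, 400 to under 600, 600 to under 1000 and 1000 or more UMIs, 1.10 with at most 2.5% mitochondrial UMIs, and 1.00 with equal weight per barcode. The log2 type V proportion, -0.51, was -0.28 with at least 500 genes and, chosen after seeing the data, -0.34 with 200 to under 300 genes and -0.013 under 200 genes. Reversed values were -0.069 for the Col5a1 log2 ratio with at least 500 genes, and, also chosen afterwards, -0.079 for Col3a1 over type I with 200 to under 300 genes and -0.21 for Col5a1 over Col5a2 under 200 genes, and the interval of each covered 0. The Col5a2 log2 ratio, under the fold at 0.26, was -0.12 with at least 500 genes. Col1a1 over Col1a2, -0.037 on the log2 scale with an interval that covered 0, turned positive with all deposited barcodes (0.087), under 200 genes (0.37) and with 200 to under 300 genes (0.067), and the first 2 of these had intervals above 0. The median r of the 3 type I and III pairs was 0.77 in UT and 0.80 in IMQ at 400 UMIs, 0.69 and 0.70 at 200, and 0.85 and 0.91 at 800, and in IMQ it was 0.91 with at least 500 genes and 0.86 when thinned without the UMIs named above. The excess squared coefficient of variation of the sum stayed within 1.5 times its value in each library under all 8 alternatives. The cause of these shifts was not tested.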
